A study of Mus musculus with 2 samples.

Results

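The cells described here were lung ILC2s that held Cxcl1 transcripts without those of the hallmark type 2 cytokines. They numbered 112 of 8394 kept barcodes in the WT library and 90 of 7087 in the Pac1-/- library, or 202 of 15481 in all. A barcode stands for 1 droplet, and it was kept if it held 500 or more detected genes and no more than 10% of its unique molecular identifiers (UMIs, 1 per captured transcript) from mitochondrial genes. A member had at least 2 Cxcl1 UMIs, at most 1 Calca UMI and no UMI of Il5, Il13 or Il2. The comparators were kept barcodes of the same library with 0 Cxcl1 UMIs and the same limits on the 4 other genes, 2 for each member, taken nearest in total UMIs. Members were chosen by the measured UMIs of these 5 genes, so the values of these are given as a description.

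The study asked how loss of PAC1, the phosphatase encoded by Dusp2, alters lung ILC2s and their response to the neuropeptide CGRP. Lung ILC2s of WT mice and of mice with a germline deletion of Pac1 (Pac1-/-, written Pac1-KO in the labels) were sorted as live cells without lineage markers and with surface CD90.2, ST2 and Sca-1. Mice were 6 to 8 weeks old, cells of 4 to 5 mice were pooled per genotype, and about 13000 cells were loaded for each of the 2 droplet libraries. The labels name no stimulation of these mice and tie no cell to a mouse. With 1 library per genotype, genotype and library cannot be told apart, no test was made, and each interval (95%, exact) covers counting error only.

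ILC2s are tissue-resident lymphocytes that carry no antigen receptor and answer epithelial alarmins such as IL-33 with IL-5, IL-13, amphiregulin and GM-CSF. CXCL1 and CXCL2 are ELR-positive CXC chemokines that bind CXCR2 and draw neutrophils, and their genes are transcribed on NF-κB activation. Nr4a1, Nr4a2 and Nr4a3 encode orphan nuclear receptors of the immediate-early class, induced by antigen receptor, calcium and cAMP signals. CCL1 is the ligand of CCR8, a receptor found on type 2 lymphocytes and regulatory T cells.

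The WT library held 10866 barcodes with 56182065 UMIs and the Pac1-/- library 9495 barcodes with 60283285 UMIs. Kept barcodes outnumbered the cells retained in the study, whose filter is not given in the sources used here. The libraries shared 29 barcode sequences, 15 of them kept in both, and no sequence was a member in both. No doublet caller was run, and 9 WT and 11 Pac1-/- members exceeded 2 times the median UMIs of kept barcodes. Dusp2, the deleted gene, had 1419 UMIs in kept WT barcodes and 5 in kept Pac1-/- barcodes, 16 UMIs in the WT members and 0 in the Pac1-/- members. Depth was matched closely, with a median of 3869.5 UMIs in WT members against 3870.5 in comparators and of 5359 against 5358.5 in the Pac1-/- library. Members held fewer detected genes at that depth, with a median of 1334.5 against 1440.5 genes in WT and of 1692 against 1917 in Pac1-/-.

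Members, which were also limited in Il2 and Calca, were the smaller share of all Cxcl1-positive barcodes. At least 2 Cxcl1 UMIs were found in 1195 kept WT barcodes (14.2%; 13.5 to 15) and in 607 kept Pac1-/- barcodes (8.56%; 7.92 to 9.24). Members made up 9.37% (7.78 to 11.2) of the former and 14.8% (12.1 to 17.9) of the latter, and they carried 4.12% and 8.70% of all Cxcl1 UMIs in kept barcodes. The remaining 1083 WT and 517 Pac1-/- barcodes failed a limit on Il5, Il13, Il2 or Calca, and they were deeper, with medians of 9958 and 13594 UMIs. The share of members varied with depth. With barcodes thinned to 2000 UMIs, members were 24.7% in WT and 37.1% in Pac1-/- of those with at least 2 Cxcl1 UMIs.

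The type 2 cytokine transcripts were more frequent in Cxcl1-positive barcodes than in barcodes without Cxcl1 at the same depth. In WT, 78.4% of barcodes with at least 2 Cxcl1 UMIs held an Il5 UMI (76.0 to 80.7), against 68.5% (65.8 to 71.2) of depth-matched barcodes with 0 Cxcl1 UMIs. In Pac1-/- the same shares were 65.6% (61.6 to 69.3) and 57.8% (53.8 to 61.8). Il13, the effector cytokine of mucus production, stood at 52.4% against 41.9% in WT and at 43.2% against 34.1% in Pac1-/-. A UMI of Il5 or Il13 was held by 84.4% against 74.6% in WT and by 71.5% against 65.7% in Pac1-/-. At least 2 UMIs of Calca, which encodes CGRP, were found in 64.3% against 53.1% and in 52.2% against 46.5%. The shares with Il2 differed little, at 33.6% against 31.3% and at 44.3% against 43.7%.

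**Figure D1:**
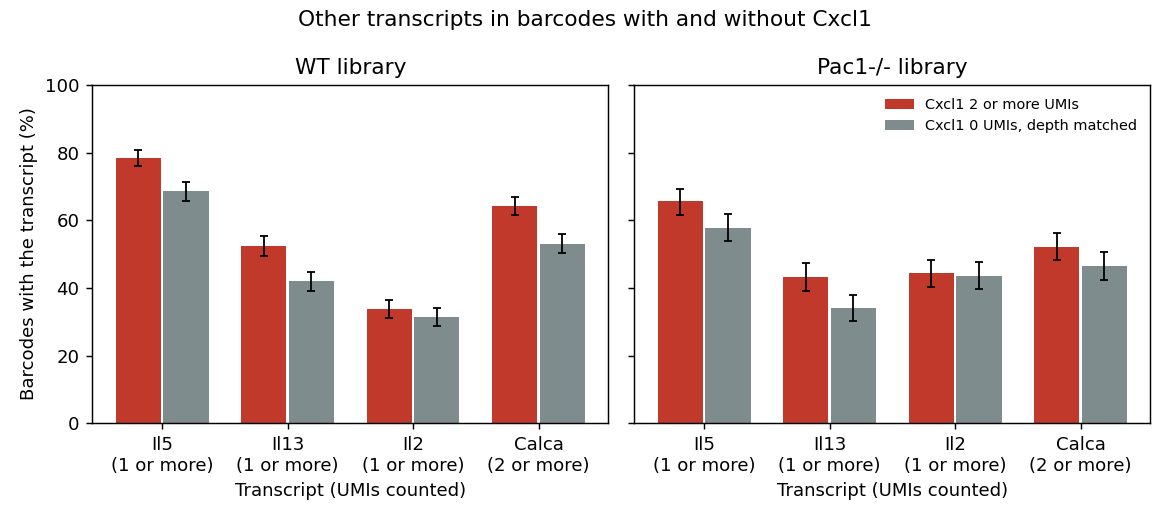
Share of barcodes (y axis, %) with at least 1 UMI of Il5, Il13 or Il2 or at least 2 of Calca, in kept barcodes with at least 2 Cxcl1 UMIs and in depth-matched barcodes with 0 Cxcl1 UMIs, for each library. Bars start at 0 and error bars are exact 95% binomial intervals. The Il5 and Il13 bars of Cxcl1-positive barcodes stand above those of the matched barcodes in both libraries.

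Free RNA in the suspension can put a UMI into a droplet whose cell does not transcribe the gene. At least 1 Cxcl1 UMI was found in 22.2% of kept WT barcodes and in 2 of 10 WT barcodes with at least 3 UMIs of B cell markers, a type not known for Cxcl1, at median depths of 4186.5 and 3999.5 UMIs. In Pac1-/- the figures were 14.8% and 4 of 27, at medians of 5577 and 5414 UMIs. At the limit of 2 UMIs they were 0 of 10, which allows a share of up to 30%, and 2 of 27 (7.41%; 0.91 to 24.3), against 14.2% and 8.56% of all kept barcodes. The share of kept barcodes with a Cxcl1 UMI was thus not detectably above that of the B cell-marked barcodes, which were few. Barcodes under 500 genes held 172 CPM of Cxcl1 in WT and 125 in Pac1-/- (CPM, UMIs per 1000000 UMIs of the set), close to the 229.6 and 137 CPM over all kept barcodes. How many members owe their Cxcl1 UMIs to free RNA was not tested.

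Members carried the transcripts of ILC2s. A UMI of Gata3, the transcription factor that defines the lineage, or of Il1rl1, which encodes the IL-33 receptor ST2, was present in 109 of 112 WT and 87 of 90 Pac1-/- members. All 12 ILC2 markers of the list had UMIs in members of both libraries, and their median log2 ratio of members over comparators was 0.03 in WT and 0.05 in Pac1-/-, against a median over all genes of -0.08 and -0.14. Gata3 was slightly higher in members, with log2 ratios of 0.32 (0.15 to 0.49) and 0.36 (0.21 to 0.51), as was Rora, another ILC2 transcription factor, with 0.47 (0.36 to 0.58) and 0.49 (0.36 to 0.62). Il7r, the IL-7 receptor chain, was lower, with -0.19 (-0.37 to -0.01) and -0.32 (-0.46 to -0.17), and Il1rl1 itself had intervals that included 0. At least 1.5-fold higher were 1 marker in WT (Areg) and 2 in Pac1-/- (Areg and Icos), beside 4.13% and 4.67% of all genes counted. At least 1.5-fold lower were 1 in WT and none in Pac1-/-, beside 9.01% and 13%, and this one was Il17rb, which encodes the IL-25 receptor, at -0.61 (-1.21 to -0.05) in WT and -0.41 (-0.91 to 0.07) in Pac1-/-. The label of absent type 2 cytokines held for Il9, with 0 UMIs in members of both libraries (the limit of 3 counts being 6.11 and 5.25 CPM), and not in full for Il4, found in 4 WT and 11 Pac1-/- members. It rests on a count of 0 at a median of 3869.5 or 5359 UMIs, at which a low transcript can be missed.

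A few members carried genes of other cells. Fibroblast markers were present at 3 or more UMIs in 2 members of each library, and none of these 4 held a Gata3 or Il1rl1 UMI. Their summed level was 71.3 CPM in WT members against 13.2 in comparators and 28.0 CPM against 0.881 in Pac1-/-, with Dcn at 0 in members of both libraries. These 4 barcodes held all 71 WT and 109 Pac1-/- member UMIs of Mgp, a matrix protein gene. Of the 4 hemoglobin genes, Pac1-/- members held 1925 UMIs and WT members 9, and the Pac1-/- sum included 1884 from 1 barcode. Comparators of that library held 1800, with 1687 in 1 barcode. All 4 neutrophil markers were at 0 in members of both libraries, as were all 3 ILC3 markers. T cell marker UMIs, mostly of the receptor constant-region genes Trbc1 and Trbc2, reached 754 CPM in WT members against 724 in comparators and 915 CPM against 983 in Pac1-/-, and Cd4 and Cd8a were at 0. Markers of B cells, NK cells or ILC1, macrophages, mast cells or basophils, epithelium, endothelium and platelets each summed to at most 52.5 CPM in members. Of these, NK or ILC1 markers were at 10.2 CPM in WT members against 1.02 in comparators and at 21.0 against 1.76 CPM in Pac1-/-, from 5 and 12 member UMIs, and macrophage markers at 18.3 against 2.04 CPM in WT, from 9 UMIs in 1 member.

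The Cxcl1 count itself varied widely among members. In WT it ran from 2 to 26 UMIs with a median of 3, and in Pac1-/- from 2 to 80 with a median of 3. Exactly 2 UMIs, the lowest count admitted, were found in 40 WT and 23 Pac1-/- members, and 152 WT and 133 Pac1-/- barcodes with 1 UMI lay just outside. At least 10 UMIs were found in 11 and 12 members. The summed level was 1051 CPM in WT (962 to 1146) and 1216 CPM in Pac1-/- (1127 to 1310), and the highest Pac1-/- barcode held 11.5% of that library's member UMIs.

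Cxcl2, which encodes a close relative of CXCL1, lies at chr5:90903871-90905938 on the plus strand, downstream of Cxcl1 at chr5:90891241-90893115 (GRCm38). It had the highest ratio after Mgp when genes were ranked by the smaller of their ratios in the 2 libraries. Per barcode, WT members held 0 to 136 Cxcl2 UMIs with a median of 6, while WT comparators held 0 to 62 with a median of 0. Pac1-/- members held 0 to 146 with a median of 3.5, against 0 to 122 and a median of 0 in comparators. The distributions overlapped, since 21 WT and 22 Pac1-/- members had no Cxcl2 UMI. Summed levels were 3553 against 620.2 CPM in WT, a log2 ratio of 2.52 (2.38 to 2.65), and 2360.3 against 488.8 CPM in Pac1-/-, a log2 ratio of 2.27 (2.13 to 2.42).

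Cxcl3, the third CXCR2 ligand gene of this cluster, was rare and uneven. Pac1-/- members held 127 UMIs against 12 in comparators, a log2 ratio of 4.39 (3.54 to 5.38), and 47 of these UMIs were in 1 barcode. In WT members 19 UMIs were found against 6 in comparators, below the minimum of 50 UMIs for a gene to be counted. The transcripts of Cxcl2 and Cxcl3 share an identical run of 157 bases and those of Cxcl1 and Cxcl2 one of 23 bases, so that reads of Cxcl2 and Cxcl3 may be lost or assigned to the relative. Of the 8 CXC chemokine genes listed besides Cxcl1, 2 were counted in WT and 3 in Pac1-/-, of which 1 and 2 were 1.5-fold higher. Over all genes 4.13% of 3653 were so in WT and 4.67% of 4348 in Pac1-/-. Cxcl5 and Cxcl9 had 0 UMIs in members and comparators, and Cxcl10, an interferon-induced ligand of CXCR3, had ratios whose intervals included 0.

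Ccl1 was higher in members of both libraries. WT members held 0 to 55 UMIs with a median of 1 and comparators 0 to 35 with a median of 0, with summed levels of 990.0 and 380.9 CPM and a log2 ratio of 1.38 (1.18 to 1.58). Pac1-/- members held 0 to 34 with a median of 0, and the summed levels were 383 against 140.0 CPM, a log2 ratio of 1.45 (1.15 to 1.76). The groups overlapped, and 42 WT and 47 Pac1-/- members had no Ccl1 UMI. Of 14 CC and XC chemokine genes listed, the others were too low to be counted except Ccl5 in Pac1-/-, at a log2 ratio of -0.05 (-0.92 to 0.78).

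**Figure D2:**
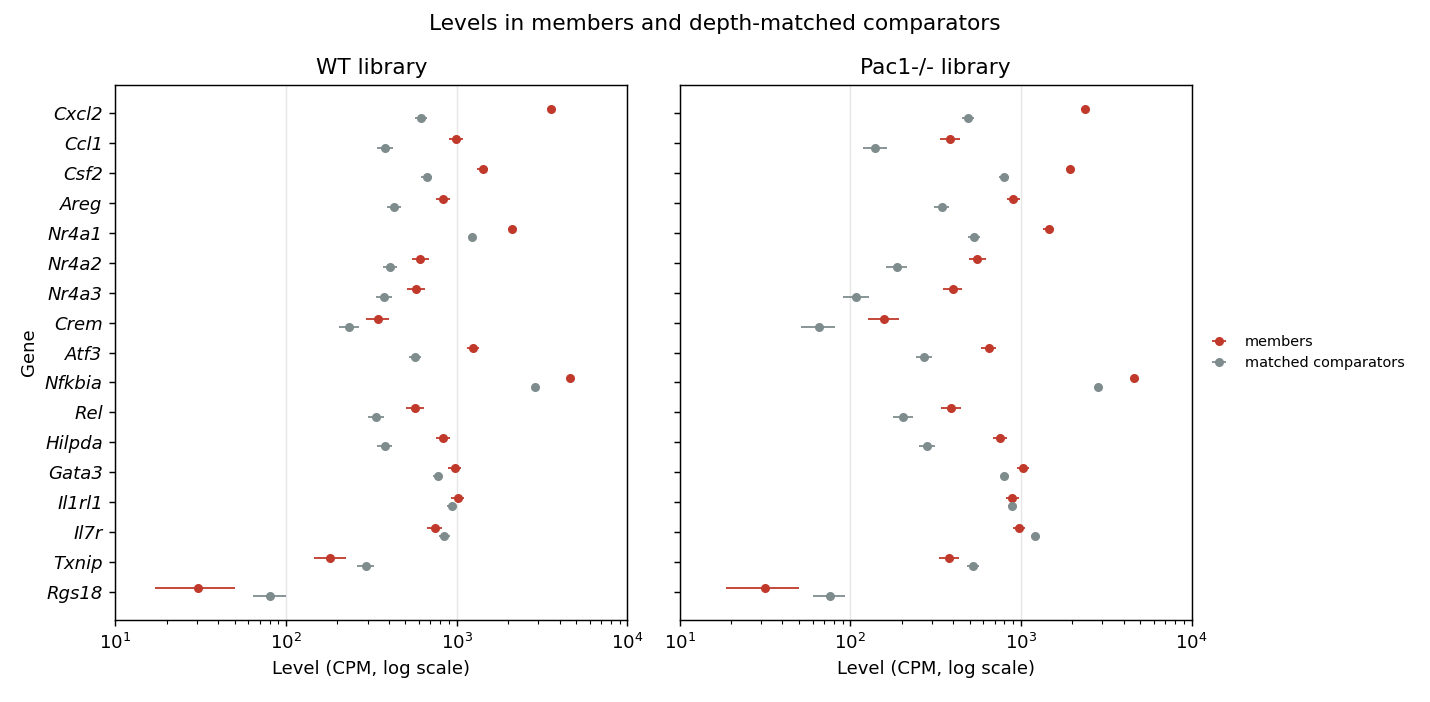
Summed level of 17 genes (x axis, CPM on a log scale) in members and in their depth-matched comparators of each library. Points are levels and bars exact 95% Poisson intervals, which cover counting error only. Cxcl2 shows the widest gap, while Il1rl1 and Gata3 lie close together and Txnip and Rgs18 lie lower in members.

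All 3 Nr4a genes were higher in members, with larger ratios in the Pac1-/- library, a difference that was not tested. The median of the 3 ratios was 0.63 in WT and 1.57 in Pac1-/-, against 2 comparators per member. It was 0.96 and 1.31 against all comparators without depth matching. With barcodes thinned to 2000 UMIs, which redrew the members and also used all comparators, it was 1.07 and 1.12. Nr4a3 was detected in 67.9% of WT members against 46.9% of comparators and in 50% of Pac1-/- members against 30%. WT members held 0 to 25 Nr4a3 UMIs with a median of 1, and Pac1-/- members 0 to 46 with a median of 0.5, while the median of both comparator sets was 0. The log2 ratio was 0.63 (0.40 to 0.85) in WT, from 579 against 375 CPM, and 1.87 (1.55 to 2.20) in Pac1-/-, from 397 against 108 CPM. Nr4a1 had log2 ratios of 0.79 (0.66 to 0.91) and 1.45 (1.29 to 1.60) and Nr4a2 of 0.59 (0.37 to 0.81) and 1.57 (1.32 to 1.83). In the 5 Pac1-/- members with Gata3 or Il1rl1 and no UMI of another lineage's markers the Nr4a3 ratio was -0.013 (-2.64 to 2.21), too wide an interval to show a change. With T cell markers allowed, 36 Pac1-/- members remained and the ratio was 0.94 (0.35 to 1.53). The smaller WT ratio went with higher levels in the WT comparators, since Nr4a3 stood at 375 CPM there and at 108 CPM in Pac1-/- comparators.

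Nr4a3 and Ccl1 were found together in 45.5% of WT members (36.1 to 55.2) and 19.2% of comparators (14.3 to 25), and in 32.2% (22.8 to 42.9) and 14.4% (9.66 to 20.4) in Pac1-/-. Neither transcript was present in 15.2% of WT and 34.4% of Pac1-/- members. These members held Cxcl1 without the other 2 marker transcripts.

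Genes induced by cAMP and CREB, the route by which CGRP acts, lay above the comparators as a list. Of its 13 genes, 11 passed the minimum of 50 UMIs over members and comparators. At least 1.5-fold higher were 4 in WT, which were the 3 Nr4a genes and Per1, and 8 in Pac1-/-, which added Crem, Fosl2, Sik1 and Rgs2, beside 4.13% and 4.67% of all genes. None was 1.5-fold lower, beside 9.01% in WT and 13% in Pac1-/- over all genes. The list had a median log2 ratio of 0.51 in WT and 0.84 in Pac1-/-, and the 3 Nr4a genes are on it. Nr4a3 is also a marker of the members, and no median was taken without the Nr4a genes. Crem, a CREB family member that includes the repressor ICER, had log2 ratios of 0.56 (0.26 to 0.85) and 1.27 (0.81 to 1.74), Fosl2 of 0.51 (0.33 to 0.69) and 0.84 (0.62 to 1.06), and the clock gene Per1 of 0.78 (0.33 to 1.23) and 0.59 (0.07 to 1.11). The phosphodiesterase genes Pde4b and Pde3b, which degrade cAMP, had intervals that included 0 in both libraries. The CGRP receptor chains Calcrl and Ramp1 also had intervals that included 0, while Ramp3 was at 1.71 (0.93 to 2.53) in Pac1-/-, from 38 against 23 UMIs. Of 12 receptor genes listed with them, 6 in WT and 7 in Pac1-/- were counted, with medians of 0.08 and -0.29. Of the CGRP-response genes named by the study, 8 were listed, leaving out Calca, a rule gene, and Creb3l. The 4 that were counted had medians of 0.34 and 0.72. By 1.5-fold, 1 and 2 were higher, beside the same 4.13% and 4.67% of all genes, and none was lower. In the members with Gata3 or Il1rl1 and no UMI of another lineage, 11 in WT and 5 in Pac1-/-, these medians were 0.0023 and -0.60.

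Inhibitors and subunits of NF-κB were higher in members in part. Of 17 listed genes, 15 were counted in WT and 14 in Pac1-/-, of which 3 and 6 were 1.5-fold higher, beside 4.13% and 4.67% of all genes. None was 1.5-fold lower, beside 9.01% and 13%, and the medians were 0.22 and 0.45. Nfkbia encodes IκBα, the inhibitor that NF-κB itself induces. It ranged from 0 to 83 UMIs with a median of 14 in WT members, against 0 to 94 with a median of 7 in comparators, and from 1 to 116 with a median of 19 in Pac1-/- members, against 0 to 180 with a median of 8. Its log2 ratios were 0.67 (0.59 to 0.75) and 0.70 (0.62 to 0.77). The subunit genes Rel, at 0.76 (0.53 to 1.0) and 0.93 (0.66 to 1.21), and Nfkb1, at 0.60 (0.47 to 0.74) and 0.61 (0.47 to 0.76), were higher in both libraries, whereas Rela and Relb had intervals that included 0. Tnfaip3, which encodes the deubiquitinase A20, was at 0.22 (0.10 to 0.34) in WT and at 0.82 (0.70 to 0.93) in Pac1-/-.

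Of 12 counted immediate-early AP-1 and Egr genes, 1 in WT and 4 in Pac1-/- were 1.5-fold higher, beside 4.13% and 4.67% of all genes, so that the WT count was near the background. None was 1.5-fold lower, beside 9.01% and 13% of all genes, and these shares are also the background of the other lists here. The medians were 0.28 and 0.46, and -0.035 in the 5 Pac1-/- members with Gata3 or Il1rl1 and no UMI of another lineage. Atf3, a stress-induced bZIP factor, had log2 ratios of 1.14 (0.97 to 1.30) and 1.26 (1.03 to 1.48), and without its highest barcodes 1.14 and 0.97, but -1.94 (-2.82 to -1.16) in those 5 members. Fos was at 0.39 (0.29 to 0.49) and 0.62 (0.54 to 0.70), and Egr1 had intervals that included 0. Regulators of AU-rich mRNA decay, which shorten the life of chemokine transcripts, had medians of 0.33 and 0.19 over 12 counted genes, with 1 higher in WT and 2 higher and 1 lower in Pac1-/-, so that the WT count of higher and the Pac1-/- count of lower genes were near or below the background. Among them Zc3h12a, the RNase Regnase-1, was at 0.57 (0.12 to 1.01) and 1.14 (0.63 to 1.66), and Zfp36l2 was lower, at -0.43 (-0.64 to -0.22) and -0.32 (-0.49 to -0.15). The 6 counted MAPK feedback genes had medians of 0.02 and 0.54, with 1 higher and 2 lower in WT and 2 higher and none lower in Pac1-/-, and the phosphatase gene Dusp5 stood at 0.24 (0.02 to 0.46) and 1.20 (0.96 to 1.44).

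Members, chosen without Il5 and Il13 UMIs, held UMIs of other ILC2 products. How many of these UMIs came from free RNA was not tested. A UMI of Csf2 (GM-CSF) or of Areg (amphiregulin) was present in 86.6% of WT members (78.9 to 92.3), against 66.5% of comparators (59.9 to 72.7). In Pac1-/- the shares were 82.2% (72.7 to 89.5) and 72.8% (65.7 to 79.1), with intervals that overlapped. WT members held 0 to 54 Csf2 UMIs with a median of 2 and Pac1-/- members 0 to 118 with a median of 3, against medians of 0 and 1 in comparators. The log2 ratios were 1.10 (0.94 to 1.25) and 1.29 (1.16 to 1.42). Areg had log2 ratios of 0.95 (0.75 to 1.15) and 1.39 (1.20 to 1.58), although the median per barcode was 1 UMI in WT and 0 in Pac1-/- members. Of 18 other cytokine and growth factor genes, 7 were counted in WT, with 4 at least 1.5-fold higher and 1 lower, and 6 in Pac1-/-, with 3 higher and 2 lower. Over all genes 4.13% were higher and 9.01% lower in WT, and 4.67% and 13% in Pac1-/-. Lif, an IL-6 family cytokine gene, lay in opposite directions, at 1.42 (0.81 to 2.04) in WT and at -0.78 (-1.60 to -0.03) in Pac1-/-. Hbegf, an EGF receptor ligand gene, had 39 UMIs in WT members against 13 in comparators, from 10 members, and too few UMIs in Pac1-/- to be counted.

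The promoters of Cxcl1, Cxcl2 and Nr4a3 are shown because Cxcl1 defined the members and the other 2 were higher in them. The windows run from 250 bases before to 50 after the annotated start on the sense strand, from RefSeq on GRCm38.p6. Capitals mark the letters GGG, any 2 bases and TTTCC, a κB form, and TGACGT, the half-site of the cAMP response element, each on either strand.
Cxcl1, chr5:90890995-90891294, plus strand: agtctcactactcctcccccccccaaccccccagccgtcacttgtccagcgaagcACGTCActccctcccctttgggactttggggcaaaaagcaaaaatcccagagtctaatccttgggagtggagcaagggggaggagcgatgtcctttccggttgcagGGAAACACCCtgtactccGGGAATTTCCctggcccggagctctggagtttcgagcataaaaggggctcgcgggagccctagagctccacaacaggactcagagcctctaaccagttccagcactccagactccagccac
Cxcl2, chr5:90903649-90903948, plus strand: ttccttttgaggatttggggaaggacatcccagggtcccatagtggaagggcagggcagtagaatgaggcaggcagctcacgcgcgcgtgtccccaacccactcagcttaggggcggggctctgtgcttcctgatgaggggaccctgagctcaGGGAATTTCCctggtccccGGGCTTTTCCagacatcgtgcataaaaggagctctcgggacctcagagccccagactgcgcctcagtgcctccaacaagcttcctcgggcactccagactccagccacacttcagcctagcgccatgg
Nr4a3, chr4:48045055-48045354, plus strand: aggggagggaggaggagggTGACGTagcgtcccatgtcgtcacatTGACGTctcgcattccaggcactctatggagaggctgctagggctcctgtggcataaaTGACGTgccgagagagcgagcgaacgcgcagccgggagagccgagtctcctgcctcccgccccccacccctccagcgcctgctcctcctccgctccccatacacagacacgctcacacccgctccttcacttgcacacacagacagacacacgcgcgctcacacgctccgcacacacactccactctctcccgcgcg
The Cxcl1 window holds 2 κB matches, which start at positions -89 and -71 from the start of transcription, and 1 half-site, the Cxcl2 window 2 κB matches and no half-site, and the Nr4a3 window 3 half-sites and no κB match. No κB match overlapped a half-site in these windows. The Cxcl3 window holds 1 κB match, Areg and Atf3 1 half-site region each, and the windows of Ccl1, Csf2, Nr4a1 and Nr4a2 hold neither set of letters. Among all 32851 promoters, 1.63% held the κB form and 7.51% the half-site, and among the promoters of genes counted in both libraries 1.84% and 14%. Of 41 promoters matched to the genes higher in both libraries (below), 4 held the κB form (Cxcl2, Il4ra, Nfkbia and Rel) and 10 the half-site, and of 56 matched to the genes lower in both, 2 and 4. A match is a stretch of letters and not a measured site.

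Over all genes counted, 151 were at least 1.5-fold higher and 329 at least 1.5-fold lower in WT members, and 203 and 564 in Pac1-/- members. Among genes with at least 200 UMIs the balance turned, with 41 higher and 12 lower in WT and 63 and 26 in Pac1-/-. The median gene lay at -0.14 in Pac1-/-, and relative to it the counts there were 328 higher and 340 lower. Of 3507 genes counted in both libraries, 46 were higher in both, which is 33.1% of the 139 higher in WT and 27.9% of the 165 higher in Pac1-/-. Lower in both were 54, or 17.6% of 306 and 15.8% of 341. Over all genes counted in each library, a larger set, 4.13% were higher and 9.01% lower in WT. In Pac1-/- these shares were 4.67% and 13%. The overlap of lower genes was thus nearer to the share over all genes than the overlap of higher genes. Ranked by the smaller of both ratios, without mitochondrial genes and gene models named only by a Gm or Rik number, the 15 genes with the highest ratios in both libraries were Mgp, Cxcl2, Basp1, Ccl1, Errfi1, Hilpda, Atf3, Csf2, Bambi, Areg, Cdkn1a, Cwc25, Hs3st1, Tuba4a and Gla. Hilpda, which encodes a lipid droplet protein that inhibits lipolysis, had log2 ratios of 1.14 (0.93 to 1.34) and 1.42 (1.21 to 1.63) and was detected in 70.5% of WT and 75.6% of Pac1-/- members. Cdkn1a, the cell cycle inhibitor p21, had 0.89 (0.64 to 1.14) and 1.02 (0.77 to 1.27). In the 5 Pac1-/- members with Gata3 or Il1rl1 and no UMI of another lineage, Cdkn1a was instead at -3.01 (-8.40 to -0.33) and Atf3 at -1.94 (-2.82 to -1.16), and Bambi, Cwc25, Hs3st1 and Tuba4a were also below 0, with intervals that included 0. Errfi1, a feedback inhibitor of the EGF receptor, Bambi, a TGF-β pseudoreceptor, and Basp1, a membrane-associated signaling protein, rested on 28 to 106 member UMIs in a library, and Errfi1 in WT was at -0.35 (-1.68 to 0.72) when thinned and set against all comparators. Gla in WT, from 25 against 28 UMIs, had an interval that included 0.

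**Figure D3:**
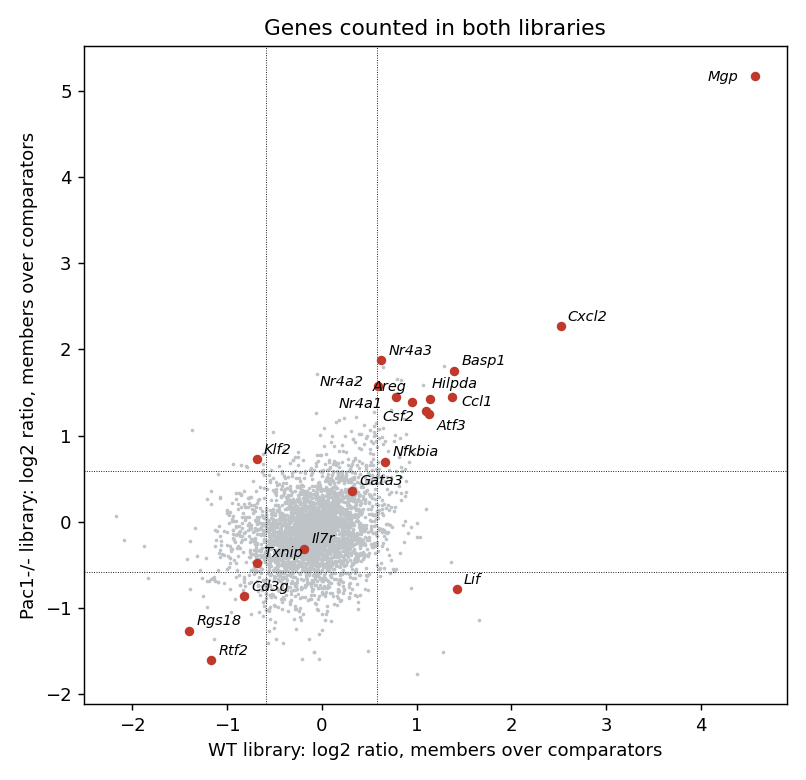
Log2 ratio of members over comparators for each gene counted in both libraries, WT on the x axis and Pac1-/- on the y axis, with the 5 rule genes left out and dotted lines at 1.5-fold. Labelled points include Cxcl2 at 2.52 and 2.27, Ccl1 at 1.38 and 1.45, and Lif and Klf2, which lie in opposite directions. Mgp, at the upper right, rests on 2 barcodes per library.

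By the same rank, the lowest ratios in both libraries belonged to Rgs18, Rtf2, Knop1, Slfn5, Hltf, Chfr, Cd3g, Acp5, Mat2b and Usp1. Rgs18, a regulator of G protein signaling, was at 30.6 against 80.5 CPM in WT, a log2 ratio of -1.40 (-2.30 to -0.59), and at 31.5 against 75.7 CPM in Pac1-/-, a log2 ratio of -1.27 (-2.09 to -0.52). Cd3g, a CD3 chain gene, was at -0.82 (-1.35 to -0.31) and -0.87 (-1.39 to -0.36). These 10 genes rested on 9 to 42 member UMIs in a library, and the intervals of Acp5 in WT and of Usp1 in both libraries included 0. In Pac1-/-, Knop1 was at 0.031 when thinned and set against all comparators, and Hltf was at 2.57 and Mat2b at 0.99 in the 5 members with Gata3 or Il1rl1 and no UMI of another lineage. Txnip, a gene linked to quiescence and glucose restriction, was at -0.69 (-1.05 to -0.34) and -0.47 (-0.71 to -0.25). Klf2, a quiescence factor gene, differed in direction, at -0.69 (-1.31 to -0.10) in WT and 0.73 (0.42 to 1.03) in Pac1-/-. Against all comparators, without depth matching, Klf2 stood at 65.2 against 91.2 CPM in WT. In Pac1-/- it stood at 295.7 against 250.6 CPM, a smaller difference than against matched comparators. Heat shock genes, of which 10 were counted, had medians of 0.05 and -0.08, and none passed 1.5-fold, beside 4.13% higher and 9.01% lower of all genes in WT and 4.67% and 13% in Pac1-/-. Resting and progenitor-like genes had medians of -0.20 and -0.36, activation and costimulation genes of 0.17 and 0.42, and the receptors and adaptors that can induce Cxcl1 of 0.19 and 0.00. Of 10 cycling genes 2 were counted, Pcna and Tubb5, and their intervals included 0.

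Levels were further compared by the number of Cxcl1 UMIs among barcodes within the other limits, without matching for depth. Cxcl2 was at 670.0 CPM in WT barcodes with 0 Cxcl1 UMIs, at 1149 with 1, at 2762 with 2, at 2609 with 3 to 4 and at 5068 with 5 or more. In Pac1-/- it was at 662.1, 669.1, 1157, 1739 and 3652 CPM. Nfkbia went from 2558 CPM at 0 and 2956 at 1 to 4333 at 2 Cxcl1 UMIs in WT, and from 2556 and 2974 to 4304 CPM in Pac1-/-. Ccl1 had no such order, at 1272 CPM with 2 UMIs, 453 with 3 to 4 and 1235 with 5 or more in WT. In Pac1-/- it was at 75.8 CPM with 2 UMIs (32.7 to 149, from 8 Ccl1 UMIs), below the 200.3 CPM of barcodes with none, and at 443 and 464 CPM above that. Nr4a3 in WT stood at 278, 325, 477, 652 and 598 CPM over the same classes, and in Pac1-/- at 107, 113, 189.6, 552 and 322 CPM.

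**Figure D4:**
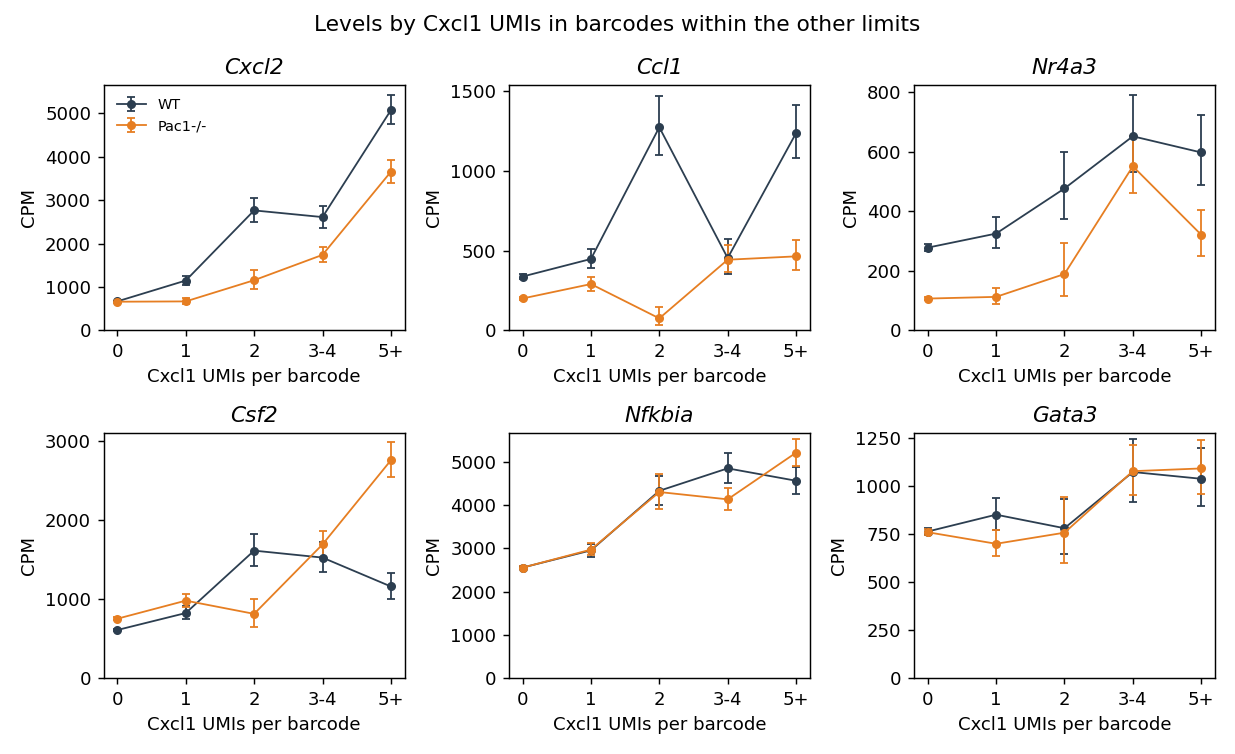
Summed level (y axis, CPM from 0) of Cxcl2, Ccl1, Nr4a3, Csf2, Nfkbia and Gata3 in barcodes with 0, 1, 2, 3 to 4 or at least 5 Cxcl1 UMIs (x axis) and within the limits on the 4 other genes, for each library. Bars are exact 95% Poisson intervals. Cxcl2 and Nfkbia are higher at 2 or more Cxcl1 UMIs in both libraries, while Ccl1 does not follow the Cxcl1 count.

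The same genes were also high in the Cxcl1-positive barcodes that failed a limit, which were deeper and were not matched to members. There Cxcl2 was at 3101 CPM in WT and 2961 CPM in Pac1-/-, beside 3553 and 2360.3 CPM in members, and Ccl1 at 949 and 652 CPM, beside 990.0 and 383 CPM. Nr4a3 was at 921 and 544 CPM in them, beside 579 and 397 CPM in members. Csf2 was at 1444 and 2157 CPM in them, beside 1422 and 1939 CPM in members. Areg was at 1053 and 1172 CPM, beside 833 and 899 CPM. Nr4a1, Nfkbia, Hilpda and Crem likewise lay above the barcodes without Cxcl1 in both libraries. Levels of these genes above those of barcodes without Cxcl1 were thus not particular to members.

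By genotype, the share of members was close in the 2 libraries, at 1.33% (1.10 to 1.60) in WT and 1.27% (1.02 to 1.56) in Pac1-/-. With every barcode thinned to 2000 UMIs and shallower ones left out (914 in WT and 617 in Pac1-/-), members by the same rule were 132 of 7480 (1.76%; 1.48 to 2.09) and 96 of 6470 (1.48%; 1.20 to 1.81). All barcodes with at least 2 Cxcl1 UMIs then made up 7.14% (6.57 to 7.75) and 4.0% (3.54 to 4.51). The lower Pac1-/- share of Cxcl1-positive barcodes was not as marked among members, and the difference between the 2 contrasts was not tested.

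Among members, 2762 genes had at least 50 UMIs over both libraries, and 12.2% were 1.5-fold higher and 12.7% 1.5-fold lower in Pac1-/-, with a median log2 ratio of 0.05. Among comparators 14.8% of 5023 genes were higher and 9.16% lower. Ccl1 was at 383 CPM in Pac1-/- and 990.0 CPM in WT members, a log2 ratio of -1.37 (-1.61 to -1.14), and comparators had -1.44 (-1.72 to -1.17). Thinned to 2000 UMIs, the ratio among members was -0.58 (-0.90 to -0.27). Nr4a3 was lower by less in members, at -0.54 (-0.80 to -0.29), than in comparators, at -1.79 (-2.10 to -1.49), and Nr4a2 was at -0.14 (-0.37 to 0.09) and -1.12 (-1.37 to -0.88). Among members the Nr4a3 ratio was -0.73 when thinned and -1.13 as a mean of per-barcode CPM. Without the highest barcode of each library it was -0.74 (-1.02 to -0.46), since 1 Pac1-/- member held 46 of 227 Nr4a3 UMIs. Cxcl2 was at -0.59 (-0.69 to -0.49), beside -0.34 (-0.51 to -0.18) in comparators. Cxcl1 was at 0.21 (0.04 to 0.38), or 0.09 (-0.08 to 0.27) without the highest barcode of each library. Cxcl3 was higher, at 2.52 (1.82 to 3.30), or 2.20 (1.40 to 3.11) without those barcodes, from 19 WT and 127 Pac1-/- UMIs. In comparators Cxcl3 was at 0.79 (-0.74 to 2.49). As counted, the intervals of members and comparators did not meet for Nr4a1, Nr4a2 or Nr4a3. The gap was smaller against all comparators, where the Nr4a medians of members over comparators were 0.96 in WT and 1.31 in Pac1-/- without thinning and 1.07 and 1.12 with it.

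Genes tied to CGRP signaling were lower in Pac1-/- members in part. Of the 8 listed CGRP-response genes, which leave out Calca and Creb3l of those the study names, 4 were counted among members. By 1.5-fold, 2 were lower and 1 higher, beside 12.7% and 12.2% of all genes among members. Their median was -0.85, beside -0.99 in comparators. Crem was at -1.13 (-1.51 to -0.75), Gpr65, a proton-sensing receptor gene, at -1.22 (-1.63 to -0.82), and Icos at 0.66 (0.23 to 1.10). In comparators Crem was at -1.85 (-2.24 to -1.46), Gpr65 at -1.50 (-1.82 to -1.18) and Icos at -0.17 (-0.52 to 0.19). Of 6 counted neural signal receptor genes, 3 were lower and none higher, beside the same shares of all genes, with a median of -0.58 beside -0.57 in comparators. Calcrl, the ligand-binding chain of the CGRP receptor, was at 75.2 CPM in Pac1-/- and 224 CPM in WT members. Its log2 ratio was -1.57 (-2.12 to -1.05), while its partner Ramp1 was at 0.24 (-0.10 to 0.59). Comparators had -0.88 (-1.24 to -0.53) for Calcrl and 0.27 (0.05 to 0.49) for Ramp1. In bulk RNA of ILC2s stimulated in vitro, the study instead reported no effect of PAC1 loss on Calcrl or Ramp1. It found a larger rise of Calcrl in Pac1-/- cells given the neuropeptide NMU. Those were cultured cells under set stimuli, unlike the cells here.

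Some genes departed between members and comparators. Dusp5 was at -0.03 (-0.27 to 0.21) among members and -0.99 (-1.22 to -0.77) among comparators, and Tnfaip3 at 0.17 (0.04 to 0.30) and -0.43 (-0.54 to -0.32). Nfkbia stood at 4588 CPM in WT and 4577 CPM in Pac1-/- members. Klf2 was at 2.18 (1.63 to 2.77) among members and 0.77 (0.42 to 1.13) among comparators. Over all comparators, without depth matching, Klf2 was at 91.2 CPM in WT and 250.6 CPM in Pac1-/-, beside 65.2 and 295.7 CPM in members. The gap between members and comparators was thus smaller there. Low genotype ratios among members were those of Hes1, a Notch target gene, at -2.28 (-2.60 to -1.97), and of Trdv4, Rab8b and Olfr1259. Comparators had -1.06 (-1.29 to -0.83) for Hes1. Trdv4 was at -2.10 in members and -1.87 in comparators and Rab8b at -1.99 and -1.35, with overlapping intervals. Olfr1259 was at -1.92 (-2.54 to -1.34) and -0.94 (-1.27 to -0.62). The highest were the 4 hemoglobin genes and Rps27rt, a ribosomal protein retrogene, at 3.52 (2.33 to 5.01). Rps27rt was at 2.70 (2.02 to 3.45) in comparators, an interval that overlapped. A single Pac1-/- barcode held nearly all UMIs of Hbb-bs, Hbb-bt and Hba-a2. Hba-a1, with UMIs in 19 Pac1-/- and 4 WT members, was at 6.21 (5.08 to 7.67), and at 3.0 (1.52 to 4.95) without the highest barcode of each library. Reads of Rps27rt and the hemoglobin genes can be shared with near-identical copies.

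**Figure D5:**
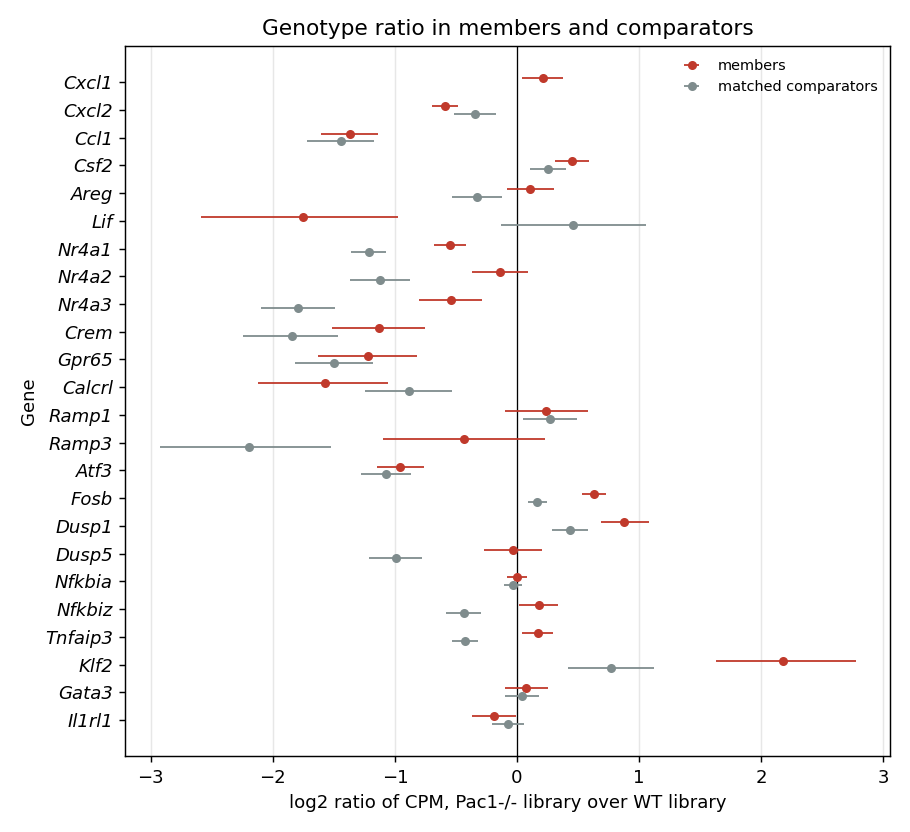
Log2 ratio of CPM in the Pac1-/- library over the WT library (x axis) for 24 genes in members and in matched comparators. Points are ratios and bars exact 95% conditional binomial intervals, for counting error only, with no comparator value for Cxcl1, which is 0 there by the rule. The Nr4a genes, Dusp5 and Tnfaip3 lie further left in comparators than in members.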

How the data were processed

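Single-cell RNA-seq of sorted lung ILC2s gave 1 WT and 1 Pac1-/- library. The authors deposited raw UMI counts per gene and barcode, made with Cell Ranger (6.1.1 per the processing notes, 4.0.0 per the file headers) on mm10. The annotation release is not given in the sources used here. Barcodes with at least 500 genes and at most 10% mitochondrial UMIs were kept, with 8394 of 10866 and 7087 of 9495 remaining. Counts were summed over members and over comparators (2 per member, nearest in total UMIs, without replacement) and divided by their total UMIs (CPM). Genes with at least 50 UMIs over both were counted, and 1.5-fold described a difference. Intervals are exact (Poisson for levels, conditional binomial for ratios, Clopper-Pearson for shares) and cover counting error only. Where UMIs of a set were 0, 3 counts served as the floor.

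Named genes were the 5 rule genes, the markers, the 15 highest and 10 lowest by the smaller ratio of the 2 libraries (Gm, Rik and mt- names left out), the 5 highest and 5 lowest by genotype, and genes of 17 lists, with 13 marker sets beside them. Of the 5 lowest by genotype, 1 is not reported here. Members and lists were chosen with earlier results of these data known. Scripts were tested on simulated data. Alternatives covered the Cxcl1 minimum, filters, matching, thinning to 2000 UMIs, the minimum of UMIs, scaling and barcodes of other lineages. Gene positions came from GENCODE vM21 and promoters from RefSeq, both on GRCm38. Python 3.11.15, numpy 2.4.6, scipy 1.17.1, pandas 2.3.3 and matplotlib 3.10.9 were used.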

Additional observations from a re-analysis of the deposited data

Results flagged for a closer look

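The 2 genes flagged in members lay in opposite directions in the 2 libraries, each with an interval apart from 0, and the difference was not tested. They are not a count over all genes. Lif had a log2 ratio of members over comparators of 1.42 in WT and -0.78 in Pac1-/-, from 55 and 19 member UMIs. The Pac1-/- interval reached -0.03, and Lif was at 0 in 79 of 90 members and 154 of 180 comparators there. Klf2 had a log2 ratio of -0.69 in WT and 0.73 in Pac1-/-, from 32 and 169 member UMIs. The Pac1-/- difference in Klf2 was smaller against all comparators without depth matching. Members held 295.7 CPM there, against 250.6 CPM in all and 178.8 CPM in matched comparators.

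Cxcl1 was also present in barcodes left out by the filter. At least 2 Cxcl1 UMIs were found in 14 WT and 7 Pac1-/- barcodes with under 500 genes, at median depths of 596 and 579 UMIs.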

How the results depend on the processing

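Each genotype was 1 library of pooled mice, so that no spread between animals could be measured, and depth limits what a count of 0 shows. Of 1131 values under alternatives, 924 stayed within their interval or within 1.5 times the count, 192 moved and 15, whose interval had left out 0, changed sign. Other values whose interval included 0 also changed sign and are counted among those that stayed or moved. The cause of these shifts was not tested, except that smaller sets and other minimums change how many genes are counted. No paired analysis was possible because each genotype had 1 library and no replicate numbers. Alternatives without fibroblast-marked barcodes, without a gene's highest barcode and with T cell genes allowed were chosen after seeing the data. Values are log2 ratios of members over comparators, or medians of them for lists, unless named otherwise.

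With a Cxcl1 minimum of 1 UMI, members were 3.15% of kept barcodes in both libraries, Ccl1 stood at 1.10 in WT and Nr4a3 at 1.18 in Pac1-/-, and the Pac1-/- medians were 1.40 for CXC chemokines, 0.90 for Nr4a receptors, 0.42 for CREB targets and 0.26 for CGRP-response genes. The genotype ratios were then -0.85 for Nr4a3 and -1.10 for Ccl1. With a minimum of 3 UMIs, members were 0.858% in WT and 0.945% in Pac1-/-, Nr4a3 and the Nr4a median stood at 0.86 and the heat shock median at -0.14 in WT, the CXC median at 2.46 in Pac1-/-, and the genotype ratio of Ccl1 at -0.93.

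Thinning to 2000 UMIs redrew the members (132 and 96) and set them against all 2967 WT and 3661 Pac1-/- thinned comparators, so that its ratios and counts differ from the main values in depth, members and comparators at once. Members were then 1.76% in WT, and 606 genes were higher and 1972 lower in WT and 1153 and 2100 in Pac1-/-. In WT Nr4a3 stood at 1.16, Ccl1 at 1.14, other cytokines at 0.47, Nr4a receptors at 1.07, CGRP-response genes at 0.65, MAPK feedback at 0.52 and Errfi1 at -0.35. In Pac1-/- Nr4a3 stood at 1.43, other cytokines at 0.77, Nr4a receptors at 1.12 and Knop1 at 0.031, and the genotype ratio of Ccl1 was -0.58.

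Against all comparators, without depth matching, 514 genes were higher and 1907 lower in WT and 570 and 2023 in Pac1-/-. Nr4a3 stood at 1.06, Nr4a receptors at 0.96 and CREB targets at 0.82 in WT, and Ccl1 at 0.94, CXC chemokines at 1.83 and Nr4a receptors at 1.31 in Pac1-/-. With 1 comparator per member, other cytokines stood at 0.71 in WT, and in Pac1-/- 333 genes were lower and CXC chemokines stood at 2.06. With a minimum of 20 UMIs the counts were 418 and 1086 in WT and 438 and 1482 in Pac1-/-, and with 200 UMIs 41 and 12, and 63 and 26. Relative to the median gene, 328 genes were higher and 340 lower in Pac1-/-, with AP-1 genes at 0.59 and heat shock genes at 0.057.

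Without barcodes over 2 times the median UMIs, Pac1-/- values were 1.42 for Nr4a3, 2.51 for CXC chemokines, -0.10 for other cytokines and 0.38 for CGRP-response genes, and the genotype ratio of Nr4a3 was -0.83. As a mean of per-barcode CPM, Nr4a3 stood at 1.35 in Pac1-/-, and the genotype ratios were -1.13 for Nr4a3 and -1.65 for Ccl1. With at least 1000 genes and at most 5% mitochondrial UMIs the genotype ratio of Nr4a3 was -0.28.

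Requiring Gata3 or Il1rl1 and no UMI of another lineage left 11 WT and 5 Pac1-/- members. Genes higher and lower were then 41 and 16 in WT and 16 and 16 in Pac1-/-. In WT Ccl1 stood at 1.88, other cytokines at 0.39, CGRP-response genes at 0.0023, AP-1 genes at 1.06, MAPK feedback at 0.85, decay regulators at 0.96, resting genes at 0.38, heat shock genes at -0.54 and Cwc25 at -0.00035. In Pac1-/- Nr4a3 stood at -0.013, Ccl1 at 0.72, Nr4a receptors and CREB targets at 0.40, CGRP-response genes at -0.60, AP-1 genes at -0.035, activation genes at 1.21, resting genes at 0.13, heat shock genes at -1.19 and Cxcl1-inducing receptors at 0.99. Of named genes there, Atf3 stood at -1.94, Bambi and Cwc25 at -1.47, Cdkn1a at -3.01, Hs3st1 at -0.75, Tuba4a at -0.013, Hltf at 2.57 and Mat2b at 0.99. The genotype ratios were 0.70 for Cxcl1, -1.80 for Nr4a3 and -0.25 for Ccl1. With T cell genes allowed, 78 and 36 members remained, members were 1.65% in WT, and Ccl1 stood at 1.73 in WT and Nr4a3 at 0.94 in Pac1-/-.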
